A study of Mus musculus with 6 samples.

Results

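The enzymes of threonine, serine and one-carbon metabolism considered here are the products of 10 genes, chosen by name from the 24736 genes measured: *Tdh*, *Gcat*, *Gldc*, *Phgdh*, *Psat1*, *Psph*, *Shmt1*, *Shmt2*, *Mthfd1* and *Mthfd2*. PolyA RNA was sequenced from mouse embryonic stem cells (ESCs) at 0 h and from epiblast-like cells (EpiLCs) after 48 h of differentiation, the time the labels give (the study's culture methods give a longer one). Each group had 3 biological replicates. Both groups were wild type, and the study's methods name the HM1 TetON ESC line as its WT control, so that all 6 libraries stand for a single line. ESCs were grown on mitotically inactivated mouse embryonic fibroblast feeders in knockout DMEM with 10% serum and 1000 U/ml of the cytokine LIF. EpiLCs were kept in N2B27, a serum-free medium, to which 10 ng/ml bFGF was added together with LGK974 at 5 µM, which blocks the secretion of WNT ligands, after the feeders had been separated off. Serum, LIF, feeders, basal medium, FGF, LGK974 and time therefore changed together, and their parts in any difference between the groups cannot be told apart.

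In mitochondria, threonine dehydrogenase (TDH) oxidises threonine and glycine C-acetyltransferase (GCAT) splits the product into glycine and acetyl-CoA. Glycine decarboxylase (GLDC) belongs to the glycine cleavage system, which passes a carbon of glycine to tetrahydrofolate. PHGDH, PSAT1 and PSPH make serine from a glycolytic intermediate, the SHMT enzymes move a carbon from serine to tetrahydrofolate, and the MTHFD enzymes interconvert the folate forms that serve purine, thymidylate and methionine synthesis. Mouse ESCs are known for high TDH and for their dependence on threonine.

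Promoter sequences were taken from RefSeq (GRCm38.p6), as windows of 250 bases before to 50 bases after a gene's start. Entries were found for 9 of the 10 genes; *Tdh* had none. The start of an entry was not always the outer end of the gene given below: it lay 8407 bases inside *Mthfd2*, 826 inside *Mthfd1*, 190 inside *Psph* and, for the second of its entries, 437 inside *Psat1*, so that the motif counts cover those inner starts. The 60 bases just before the start are shown for the other genes that passed the test below, on the strand of the gene and with each CG in capitals, since the 4 starts differ in how many CG they hold.
Gcat, chr15:79030814-79030873, plus strand: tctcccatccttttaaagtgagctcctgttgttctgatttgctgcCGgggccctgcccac
Gldc, chr19:30175442-30175501, minus strand: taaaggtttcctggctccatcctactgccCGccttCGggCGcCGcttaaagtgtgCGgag
Shmt1, chr11:60811266-60811325, minus strand: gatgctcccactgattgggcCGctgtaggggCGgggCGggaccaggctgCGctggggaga
Shmt2, chr10:127522445-127522504, minus strand: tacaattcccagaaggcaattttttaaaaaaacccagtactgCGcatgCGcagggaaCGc

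The stretch before *Gcat* held 1 CG, that of *Gldc* 5, that of *Shmt1* 4 and that of *Shmt2* 3. Over the whole 300-base windows, GC content lay between 42.7% for *Shmt2* and 66.7% for the second *Psat1* entry, against a median of 52.7% over all 32851 promoters. Both strands were searched for the sequence TGATGNAA, read by ATF4 with C/EBP proteins, and for the E-box CACGTG, which reads the same on both strands. No match of one overlapped the other in these genes. TGATGNAA was in none of the windows of the 9 genes (0 of 9) and in 3.97% of all promoters. CACGTG was in 1 of 9, that of *Gcat*, and in 7.15% of all promoters. It is shown here in capitals within 30 bases around the start, where the motif begins at base 3 counted from the start site as 1.
Gcat, chr15:79030864-79030893, plus strand: ccctgcccacgtCACGTGacggggagcact

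Library totals ranged from 16967741 to 28521848 expected counts in ESCs and from 30683164 to 35096210 in EpiLCs, where 3 counts correspond to between 0.0855 and 0.177 CPM (counts scaled to the library total). The cell identities were checked with marker genes: 5 of 6 ESC markers were lower in EpiLCs, with *Pou5f1* the exception (log2 fold change 0.07), and 5 of 5 EpiLC markers were higher, by 1.46 to 4.07. Of 14 fibroblast markers, 13 were tested and 8 were lower in EpiLCs. Their summed level was 321, 1275 and 119 TPM (transcript abundance scaled for length and library) in ESC replicates 1 to 3 and between 54.8 and 93.3 TPM in EpiLCs. *Col1a1*, a main fibroblast collagen, was at 489 TPM in ESC replicate 2 and at 28.3 TPM in ESC replicate 3, whereas *Lum* was at or near 0 in all 3 ESC libraries (0.18 TPM at most). The 5 primitive endoderm markers were lower in EpiLCs too, with sums of 35.1 to 63.3 TPM in ESCs and of 3.85 to 5.26 TPM in EpiLCs. The part of these other cells in the values below was not tested. Leaving out a library cannot test it, since the sums of both marker sets were higher in every ESC library than in any EpiLC library.

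All 10 genes passed the filter on low counts, with between 388 and 17046 expected counts in a library. Fold changes are EpiLC against ESC on the log2 scale from edgeR, and a gene was called where its p, adjusted over the 14468 genes tested, did not exceed 0.05. *Tdh*, *Shmt1* and *Shmt2* were lower in EpiLCs, making 3 of 10 against 22.8% of all genes tested. *Gcat* and *Gldc* were higher, making 2 of 10 against 22.6% of all genes. Both shares are near those of the whole table. The other 5 genes (*Phgdh*, *Psat1*, *Psph*, *Mthfd1* and *Mthfd2*) did not pass. *Tdh* was the only member lower by more than 1 on the log2 scale, against 11.5% of all genes tested.

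**Figure D1:**
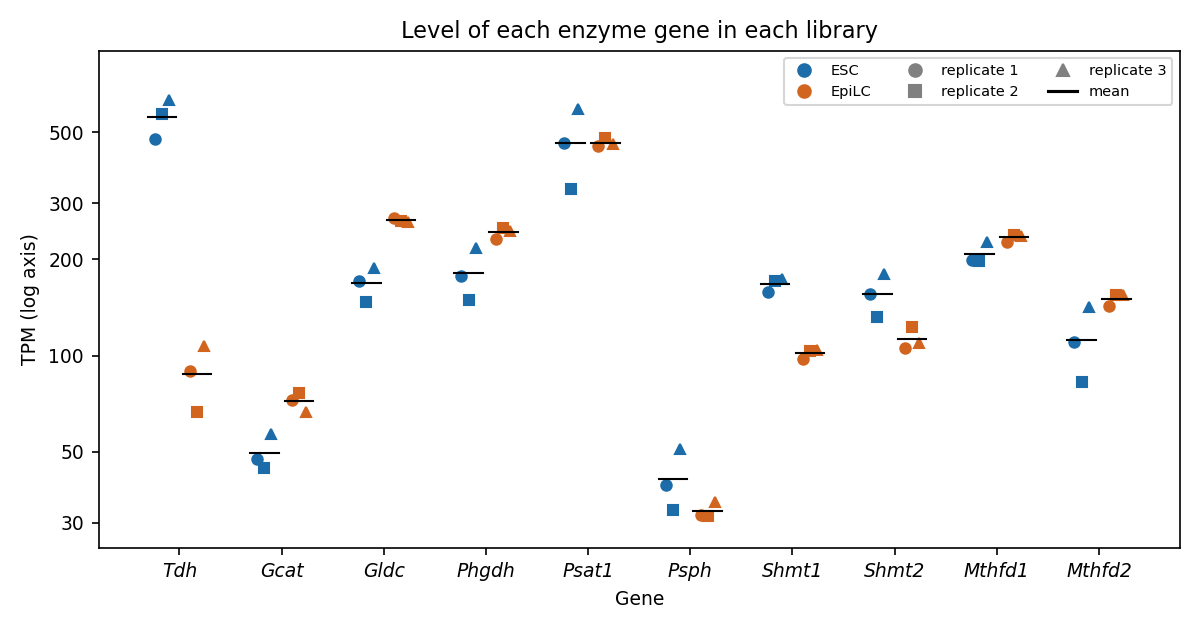
Level of each of the 10 genes in TPM (log axis) in every library, with ESCs in blue, EpiLCs in orange, a marker shape for each replicate and a line at the group mean. *Tdh* fell from between 476 and 630 TPM to between 66.6 and 107 TPM, and ESC replicate 3 lay above ESC replicate 2 for all 10 genes.

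*Tdh*, the first enzyme of threonine breakdown, is on mm10 chromosome 14 (63492347 to 63509092, minus strand). Its level was 476, 571 and 630 TPM in the ESC libraries and 89.5, 66.6 and 107 TPM in the EpiLC libraries. Every ESC library was above every EpiLC library, by a wide margin. The mean fell from 559 ± 77.5 to 87.7 ± 20.4 TPM (SD, n = 3), a log2 fold change of -2.72 (SE 0.20, 95% interval -3.20 to -2.24, adjusted p = 0.000173 by edgeR), or 6.60-fold lower. In bulk RNA, fewer cells that express a gene and less RNA per cell cannot be told apart. Without ESC replicate 2, the library with the most fibroblast RNA, the value was -2.71.

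*Gcat*, which acts on the product of TDH, is on chromosome 15 (79030874 to 79042531, plus strand). It was at 47.3, 44.3 and 56.9 TPM in ESCs and at 72.5, 76.2 and 66.8 TPM in EpiLCs. The groups did not overlap, and the direction was opposite to that of *Tdh*. The mean rose from 49.5 ± 6.55 to 71.8 ± 4.75 TPM (SD, n = 3), a log2 fold change of 0.50 (SE 0.11, adjusted p = 0.00964 by edgeR). This is a 1.42-fold rise, small beside the change of *Tdh*.

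*Gldc*, on chromosome 19 (30098441 to 30175441, minus strand), encodes the decarboxylase of glycine cleavage. Its ESC levels were 171, 147 and 188 TPM, and its EpiLC levels 269, 264 and 262 TPM. The EpiLC libraries were close to one another and all above the ESC libraries. The mean rose from 168 ± 20.6 to 265 ± 3.57 TPM (SD, n = 3), by 0.60 on the log2 scale (SE 0.10, adjusted p = 0.00284 by edgeR) or 1.52-fold.

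Of the other subunits of glycine cleavage, *Gcsh*, the carrier protein of the system, was lower in EpiLCs at -0.26 (adjusted p = 0.0226 by edgeR). The aminomethyltransferase *Amt* did not pass at -0.05 (adjusted p = 0.749), nor did *Dld*, the dehydrogenase shared with other complexes, at -0.04 (adjusted p = 0.609). Of the 4 subunits, 1 was thus higher, 1 lower and 2 did not pass, against 22.6% of all genes higher and 22.8% lower.

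The 3 genes of serine synthesis did not pass the test. *Phgdh* (chromosome 3, 98313171 to 98339969, minus strand), which takes the first step, was at 177, 149 and 216 TPM in ESCs and at 232, 251 and 246 TPM in EpiLCs. The groups did not overlap, but ESC replicate 3 came close to the EpiLC libraries. The difference was 0.37 on the log2 scale (SE 0.13, 95% interval 0.05 to 0.69, adjusted p = 0.0582 by edgeR), just above the threshold. *Phgdh* passed, as higher, with DESeq2 (adjusted p = 0.0318), with limma on log2(TPM + 1) (adjusted p = 0.0267) and in edgeR without ESC replicate 3 (adjusted p = 0.00455).

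*Psat1*, the aminotransferase of the next step, lies on chromosome 19 (15905123 to 15925059, minus strand) and was at 462, 333 and 590 TPM in ESCs. Its EpiLC levels were 452, 480 and 460 TPM, all within the ESC range. Group means were 462 ± 128 and 464 ± 14.4 TPM (SD, n = 3), and the log2 difference was -0.05 (95% interval -0.50 to 0.40, adjusted p = 0.851 by edgeR). The sign turned to 0.18 without ESC replicate 3.

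*Psph*, the phosphatase of the last step, lies on chromosome 5 (129765558 to 129787443, minus strand) and was the lowest of the 10 in both groups. It was at 39.5, 32.7 and 50.8 TPM in ESCs and at 31.7, 31.5 and 34.8 TPM in EpiLCs. ESC replicate 2 fell within the EpiLC range. The difference was -0.38 (95% interval -0.78 to 0.01, adjusted p = 0.101 by edgeR), and *Psph* passed as lower without ESC replicate 2 (adjusted p = 0.0173). Without ESC replicate 3 it was at -0.18 and did not pass (adjusted p = 0.252).

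Both serine hydroxymethyltransferases fell. *Shmt1*, the cytosolic enzyme (chromosome 11, 60788897 to 60811265, minus strand), was at 158, 171 and 174 TPM in ESCs and at 97.8, 103 and 104 TPM in EpiLCs. The replicates of each group were close together and the groups far apart relative to that spread. The mean went from 168 ± 8.69 to 102 ± 3.52 TPM (SD, n = 3), at -0.77 on the log2 scale (SE 0.07, adjusted p = 0.000286 by edgeR) or 1.71-fold lower.

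*Shmt2*, the mitochondrial enzyme (chromosome 10, 127517123 to 127522444, minus strand), was at 155, 132 and 180 TPM in ESCs and at 105, 123 and 110 TPM in EpiLCs. The groups did not overlap, although ESC replicate 2 and EpiLC replicate 2 were near each other. The log2 difference was -0.52 (SE 0.12, adjusted p = 0.0123 by edgeR), or 1.44-fold lower. Without EpiLC replicate 1 it was -0.47 and did not pass (adjusted p = 0.0564).

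The 2 MTHFD genes did not pass. *Mthfd1*, the trifunctional cytosolic enzyme (chromosome 12, 76254406 to 76319820, plus strand), was at 199, 197 and 226 TPM in ESCs and at 227, 239 and 236 TPM in EpiLCs. ESC replicate 3 and EpiLC replicate 1 almost met. The difference was 0.12 (95% interval -0.05 to 0.30, adjusted p = 0.208 by edgeR).

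*Mthfd2*, the mitochondrial dehydrogenase and cyclohydrolase (chromosome 6, 83305704 to 83326011, minus strand), was at 111, 82.9 and 142 TPM in ESCs and at 143, 154 and 155 TPM in EpiLCs. Again ESC replicate 3 lay just under the lowest EpiLC library. The difference was 0.38 (95% interval -0.05 to 0.81, adjusted p = 0.130 by edgeR). Without ESC replicate 3, *Mthfd1* (adjusted p = 0.0273 by edgeR) and *Mthfd2* (adjusted p = 0.0105) both passed as higher. The count of higher members then went from 2 to 5, against 22.6% of all genes in that fit. *Mthfd2* was at 0.20 without ESC replicate 2 (adjusted p = 0.192), and *Mthfd1* at 0.0741 without ESC replicate 1 (adjusted p = 0.535).

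**Figure D2:**
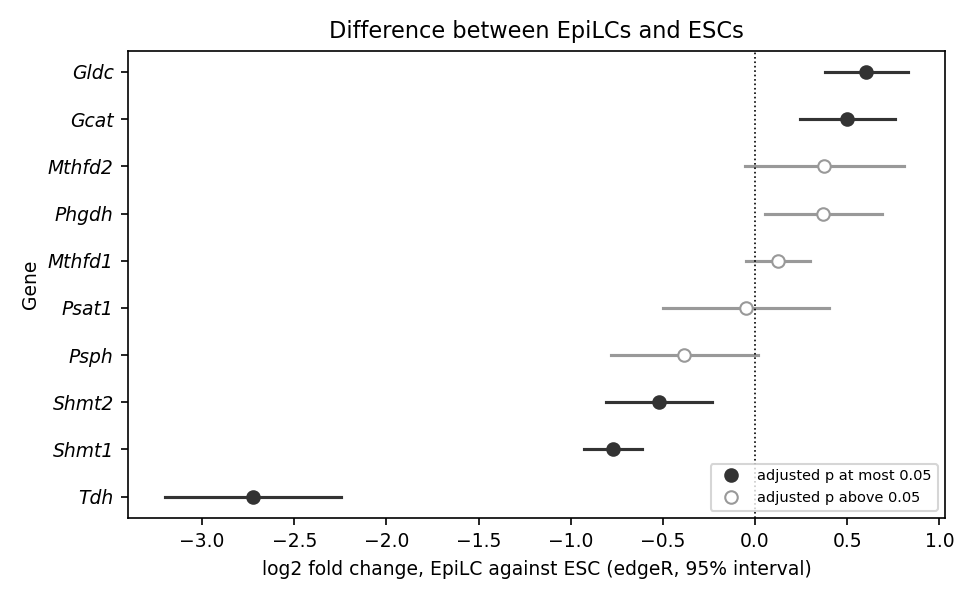
Log2 fold change of each gene, EpiLC against ESC, from edgeR, with bars for the 95% interval and filled points where the adjusted p was at most 0.05. *Tdh* stands at -2.72, and the other 9 genes lie between -0.77 and 0.60.

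By TPM, which allows genes to be compared per length, *Tdh* was the highest of the 10 in ESCs and ranked 229 among all 24736 genes. It was followed by *Psat1*, *Mthfd1*, *Phgdh*, *Gldc*, *Shmt1*, *Shmt2*, *Mthfd2*, *Gcat* and *Psph*. Of the neighbours in that order, the ranges over the replicates were apart for *Psat1* with *Mthfd1* and for *Mthfd2* with *Gcat*, and overlapped for the others. Within a library, however, the higher neighbour led in all 3 ESC libraries at every place but *Gldc* over *Shmt1* and *Shmt1* over *Shmt2*, where it led in 2 of 3. In EpiLCs the order was *Psat1*, *Gldc*, *Phgdh*, *Mthfd1*, *Mthfd2*, *Shmt2*, *Shmt1*, *Tdh*, *Gcat* and *Psph*, and *Tdh* ranked 2020 among all genes. There, *Phgdh* with *Mthfd1*, *Shmt1* with *Tdh*, and *Tdh* with *Gcat* overlapped, and *Phgdh* was above *Mthfd1* in all 3 libraries, *Shmt1* above *Tdh* and *Tdh* above *Gcat* in 2 of 3.

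Together the 10 genes summed to 2103 ± 310 TPM (SD, n = 3) in ESCs and to 1764 ± 37.5 TPM in EpiLCs. *Tdh* made up 26.6% of that sum in ESCs and 4.97% in EpiLCs. Without *Tdh* the sum was 1544 ± 267 TPM in ESCs, between 1290 and 1823, and 1676 ± 45.5 TPM in EpiLCs, between 1631 and 1722, so that the groups overlapped.

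Ratios of partner genes within a library do not depend on how libraries are scaled, and 4 were compared. With 3 libraries against 3, the exact two-sided permutation test cannot go below p = 0.1, which each of the 4 ratios reached (0.1 after Benjamini-Hochberg adjustment). The ratio of *Gcat* to *Tdh* was 0.0993, 0.0776 and 0.0903 in ESCs and 0.811, 1.14 and 0.623 in EpiLCs, a 9.40-fold difference. *Gcat* was far below *Tdh* in every ESC library and near it in the EpiLC libraries.

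The ratio of mitochondrial *Shmt2* to cytosolic *Shmt1* went from 0.930 ± 0.138 to 1.11 ± 0.0715 (SD, n = 3). That of mitochondrial *Mthfd2* to cytosolic *Mthfd1* went from 0.534 ± 0.105 to 0.644 ± 0.0114. In both pairs the mitochondrial gene stood higher relative to its cytosolic partner in all 3 EpiLC libraries than in any ESC library, by a narrow margin over ESC replicate 3. The log2 difference was 0.26 for the SHMT pair and 0.29 for the MTHFD pair, and 0.13 and 0.12 without ESC replicate 2, the library with the most fibroblast RNA. The ratio of *Psat1* to *Phgdh*, successive steps of serine synthesis, fell from 2.52 ± 0.259 to 1.91 ± 0.0370.

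**Figure D3:**
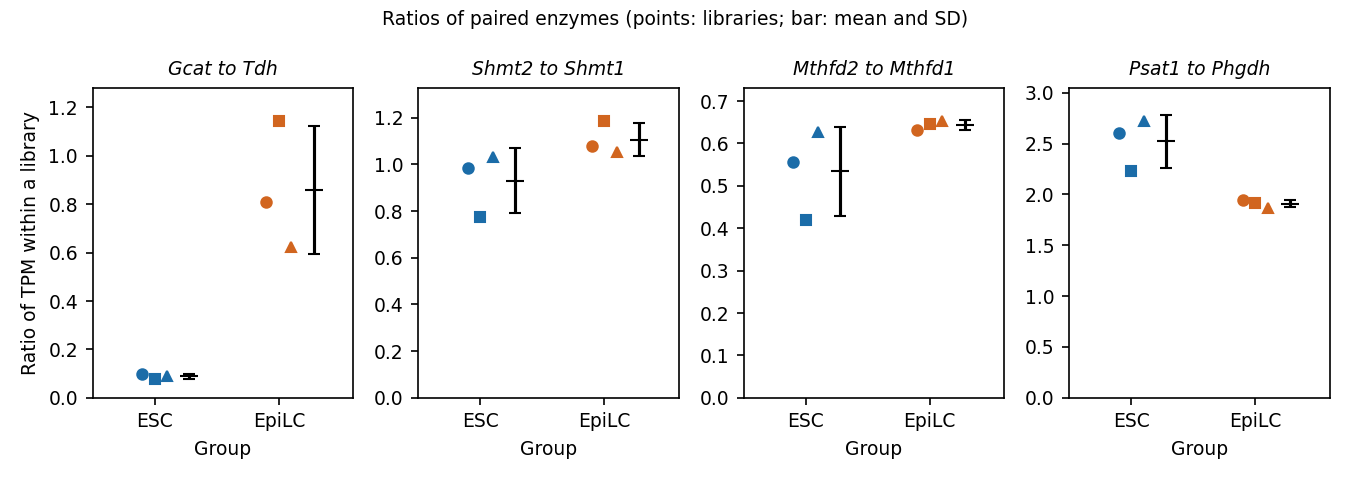
Ratio of the TPM of 2 genes within each library for the 4 gene pairs, each panel with its own axis from 0, points for single libraries and bars for the mean and SD. The *Gcat* to *Tdh* ratio was at most 0.0993 in ESCs and at least 0.623 in EpiLCs.

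The ESC replicates differed among themselves in these genes. In 8 of the 10 the order was replicate 3, then 1, then 2, as it was for 22.3% of all genes tested, the exceptions being *Tdh* and *Shmt1*. Replicate 3 exceeded replicate 2 by 0.82 on the log2 scale for *Psat1*, 0.77 for *Mthfd2*, 0.63 for *Psph* and 0.53 for *Phgdh*, but by 0.14 for *Tdh* and 0.02 for *Shmt1*. The coefficient of variation was larger in ESCs than in EpiLCs for 9 of the 10 genes, all but *Tdh*, as for 74% of all genes tested.

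ATF4 is a transcription factor known to activate serine synthesis and mitochondrial folate genes when amino acids are short. Of 16 genes listed for ATF4 and the amino acid response, 13 had the same order of ESC replicates, and their summed level was 2378, 1991 and 2889 TPM in ESC replicates 1 to 3. It lay between 1995 and 2061 TPM in EpiLCs. *Atf4* itself was at 327, 262 and 385 TPM in ESCs and did not pass between the groups (log2 fold change 0.00, adjusted p = 0.997 by edgeR). The total counts of the ESC libraries had that order too, and the fibroblast markers had the reverse order in 11 of the 13 tested. The part of depth, of fibroblast RNA and of the ATF4 genes in this spread was not tested.

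**Figure D4:**
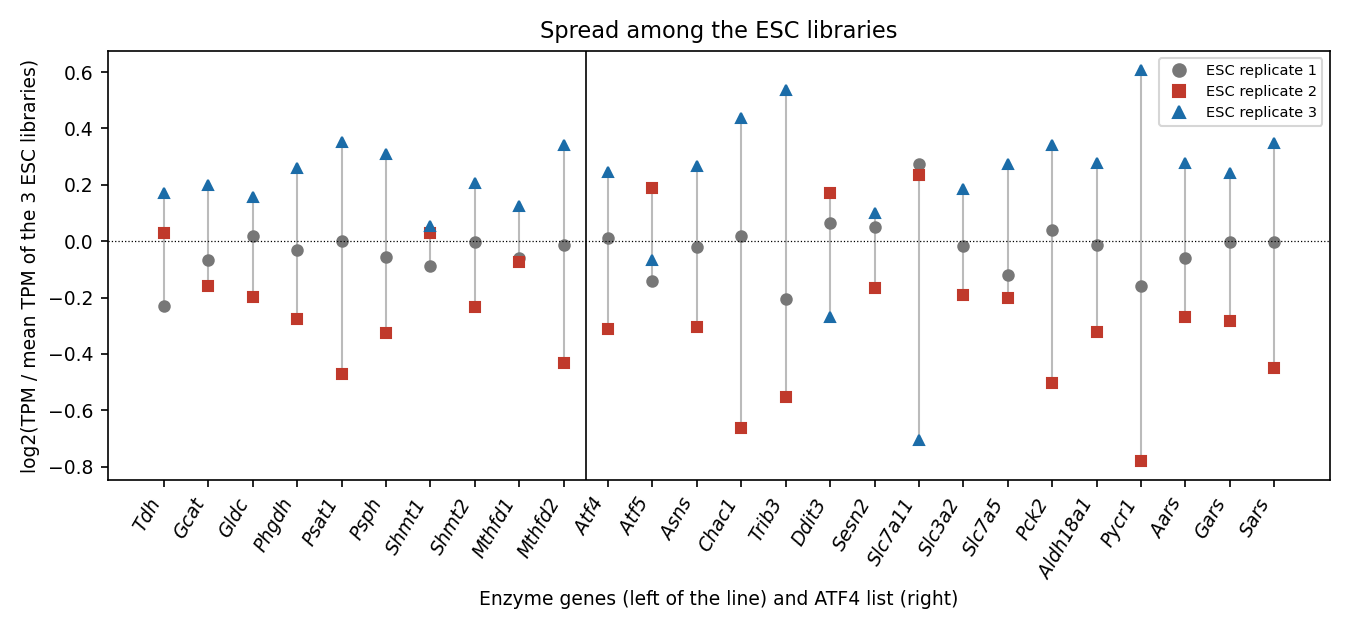
Levels in the ESC libraries relative to the ESC mean on the log2 scale, for the 10 enzyme genes and the 16 genes of the ATF4 list. Replicate 3 was highest and replicate 2 lowest for 8 of the 10 enzyme genes and 13 of the 16 ATF4 list genes.

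Beyond the 10 enzymes, 76 genes of the surrounding pathways were listed, of which 71 were tested, with 17 higher and 18 lower in EpiLCs and a median log2 fold change of 0.01. Over all genes tested, 22.6% were higher and 22.8% lower, the shares against which this and each list below may be read. Their median was -0.0017. Without EpiLC replicate 1 the counts were 10 higher and 8 lower, and without EpiLC replicate 2 they were 10 and 11. The shares of all genes fell likewise, to 14.5% higher and 14.2% lower without EpiLC replicate 1 and to 15.8% and 16.3% without EpiLC replicate 2. Among the 10 genes of glycine cleavage and other breakdown of serine, threonine and glycine, 8 were tested, with 1 higher and 5 lower. *Pipox*, a peroxisomal oxidase of sarcosine and pipecolate, rose by 1.03 from 33.5 to 71.2 TPM (adjusted p = 0.00333 by edgeR). *Dmgdh*, the mitochondrial dimethylglycine dehydrogenase, was at -3.04 (adjusted p = 0.00215), but its ESC level was low at 2.22 ± 1.03 TPM (SD, n = 3) and the value was -1.28 with limma on log2(TPM + 1), a scale that shrinks the changes of low genes.

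*Sardh*, which oxidises sarcosine in mitochondria, was at -3.93 (adjusted p = 0.0287 by edgeR). Its ESC levels were 0.55, 2.5 and 0.21 TPM, with replicate 2 far above the others, the order of the fibroblast markers, and it was at -2.43 and did not pass without ESC replicate 2 (adjusted p = 0.0528), nor at -0.81 with limma on log2(TPM + 1) (adjusted p = 0.110). *Glyctk*, glycerate kinase, was at -0.98, or -0.52 with that limma scale, and also below 2 TPM. *Srr*, which makes D-serine from L-serine, was at -0.92 (adjusted p = 0.0133 by edgeR), with low means of 2.20 TPM in ESCs and 1.19 TPM in EpiLCs.

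Of 17 folate carriers and other folate enzymes, 16 were tested, with 5 higher and 2 lower. *Mthfd2l*, the mitochondrial relative of *Mthfd2*, rose by 1.73, from 4.74 ± 0.690 to 16.3 ± 1.92 TPM (SD, n = 3, adjusted p = 0.000442 by edgeR). It remained far below *Mthfd2* in both groups. *Aldh1l1*, which oxidises formyl-tetrahydrofolate in the cytosol, rose by 1.21, and the folate carrier *Slc46a1* by 0.58. The folate receptor *Folr1* was at -2.13 (14.5 to 3.44 TPM, adjusted p = 0.00322). *Mthfd1l*, the mitochondrial formate-producing partner of *Mthfd2* (0.16, adjusted p = 0.343), and the thymidylate synthase gene *Tyms* (0.03, adjusted p = 0.671) did not pass.

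Of 14 genes of the methionine cycle and transsulfuration, 13 were tested, with 5 higher and 4 lower. Methionine synthase *Mtr*, which takes its carbon from folate, fell by 0.80 (adjusted p = 0.00208 by edgeR). *Mat2a*, which makes S-adenosylmethionine, rose by 0.70, with 244, 304 and 208 TPM in ESCs and 446, 386 and 435 TPM in EpiLCs. *Gnmt*, which methylates glycine, rose by 1.68, and *Bhmt2*, a homocysteine methyltransferase, was at -2.37 (-0.69 with limma on log2(TPM + 1)), both from ESC means under 2 TPM. In transsulfuration, which joins serine to homocysteine, *Cbs* of the first step rose by 0.86 and *Cth* of the second fell by 0.68.

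Of 12 genes of de novo purine synthesis, all 12 were tested, with 3 higher and 3 lower. *Prps2*, which makes the ribose donor, rose by 1.04 (adjusted p = 0.000496 by edgeR), and *Impdh1* and *Gmps* of the GMP branch rose by 0.65 and 0.27. *Impdh2*, of that branch too and more abundant, was lower at -0.22 (681 to 605 TPM, adjusted p = 0.0178 by edgeR). *Paics*, of the common branch, fell by 0.48, from 699 ± 81.5 to 518 ± 15.1 TPM (SD, n = 3).

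Of the 16 ATF4 and amino acid response genes, 1 was higher and 3 were lower. *Asns*, asparagine synthetase, was at 473, 388 and 578 TPM in ESCs and at 191, 197 and 187 TPM in EpiLCs. No ESC library came near the EpiLC range. The fold change was -1.38 (SE 0.14, adjusted p = 0.000519 by edgeR). The seryl-tRNA synthetase gene *Sars* fell by 0.62 and *Slc3a2*, a shared subunit of amino acid transporters, by 0.40. *Sars* was at -0.39 without ESC replicate 3. *Slc7a11*, the cystine-carrying partner of *Slc3a2*, rose by 0.96 from a level of 0.603 TPM (0.47 with limma on log2(TPM + 1)).

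Of 7 carriers of serine, glycine and threonine, 6 were tested. *Slc38a1* and *Slc38a2*, sodium-coupled carriers of neutral amino acids, rose by 0.29 and 0.25, and the related *Slc38a4* fell by 0.46 (adjusted p = 0.0244 by edgeR). The ESC and EpiLC levels of *Slc38a2* were 251 ± 7.91 and 309 ± 30.3 TPM (SD, n = 3). *Sardh*, *Glyctk*, *Aldh1l1*, *Slc46a1*, *Sars*, *Slc3a2*, *Slc7a11*, *Slc38a1*, *Slc38a2* and *Slc38a4* did not pass without EpiLC replicate 1, in a fit with fewer libraries, and each of them also lost its call without some other library. Their fold changes there were within 1.5 times those given above, for example 0.97 for *Slc7a11*, 0.31 for *Slc38a1*, 0.25 for *Slc38a2* and -0.61 for *Sars*. *Gnmt* was at 1.43 without EpiLC replicate 2 and did not pass (adjusted p = 0.0601 by edgeR).

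**Figure D5:**
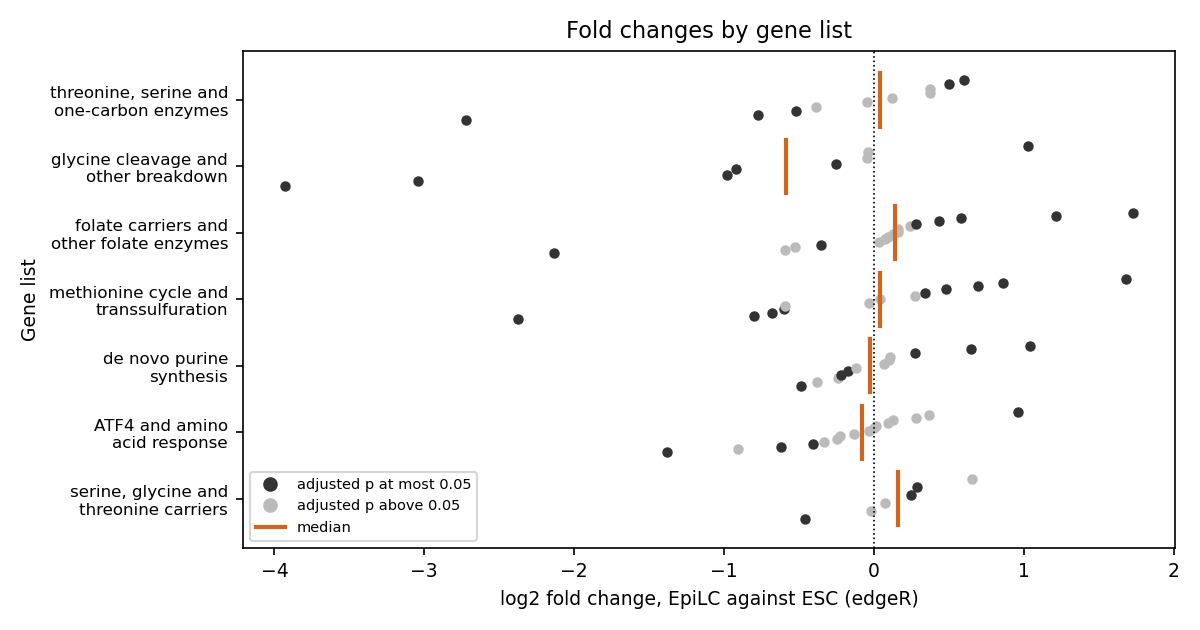
Log2 fold change, EpiLC against ESC, of each tested gene of the 10 enzymes and the 6 pathway lists, with dark points for an adjusted p of at most 0.05 and an orange line at each list's median. Medians lay between -0.59 for glycine cleavage and other breakdown and 0.16 for the carriers. The former list leaves out *Gldc*, and its summed level was between 515 and 538 TPM in every library of both groups.

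The groups did not overlap in TPM for 8 of the 10 enzyme genes, all but *Psat1* and *Psph*, as was so for 59.5% of all genes tested. Among the 9208 genes that averaged 10 CPM or more, 166 (1.80%) had a fold change at or below that of *Tdh*. The 5 genes most like *Tdh* over the 6 libraries, by the root-mean-square distance between centred log2 CPM profiles among the 9207 others, were *Trh* (0.153), *Tcea3* (0.163), *Pecam1* (0.164), *Slc2a3* (0.176) and *Ttn* (0.178). *Trh*, the precursor of thyrotropin-releasing hormone, went from 795 to 115 TPM. *Slc2a3*, a glucose transporter, went from 477 to 63.9 TPM, whereas *Ttn*, a very long muscle gene, was at 0.783 TPM in ESCs.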

How the data were processed

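RNA-seq libraries of ESCs and EpiLCs (3 biological replicates each) were sequenced as strand-specific single-end reads of 76 nt. The authors trimmed reads with cutadapt 1.16, mapped them with STAR 2.5.2a and quantified mm10 RefSeq genes with RSEM 1.3.0. Per gene, the authors deposited expected counts (not normalized, with reads that fit several genes divided between them) and TPM, scaled for length and library. The share of expected counts that were not whole was 4.27% to 4.65% in a library.

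Expected counts were rounded, filtered with filterByExpr, scaled by TMM (factors 0.979 to 1.02) and tested with edgeR 4.0.16 (quasi-likelihood, Benjamini-Hochberg over all genes tested, threshold 0.05) in R 4.3.3, after the code was tested on simulated data. Alternatives were DESeq2 1.42.0, limma 3.58.1 on log2(TPM + 1) and log2(TPM + 0.1), upper-quartile scaling, no filter, at least 10 counts in every library, a replicate block and leaving out each library. For the called list genes *Gcsh*, *Srr*, *Mat2a*, *Cth* and *Impdh2* only the main fit is given. The text names all 10 enzymes and the 5 genes most like *Tdh*. It names up to 4 called genes of each pathway list with the largest fold change. List genes whose role bears on an enzyme or another named gene are also named. The enzymes and lists were chosen with earlier results of these data known. The 95% intervals are those of the edgeR fit and include the spread between replicates, whereas the limit of 3 counts covers counting error only. Positions are from RefSeq for GRCm38.p6, whose chromosomes are those of mm10, with strand from GENCODE.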

Additional observations from a re-analysis of the deposited data

How the results depend on the processing

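*Tdh* stayed between -2.89 and -2.54 on the log2 scale over all alternatives, *Shmt1* between -0.83 and -0.71, *Gldc* between 0.51 and 0.70 and *Gcat* between 0.43 and 0.63, and all 4 kept their call in each. *Psat1* turned from -0.05 to 0.0444 and 0.0446 with limma at pseudocounts of 1 and 0.1, and ranged from -0.24 to 0.18 with 1 library left out. The median over all genes tested was itself 0.049 and 0.057 in those limma fits, against -0.0017 in the main fit. *Phgdh* passed with DESeq2 (0.37) and with limma (0.44 at either pseudocount), and ranged from 0.25 to 0.54 with 1 library left out. The same ranges were -0.53 to -0.18 for *Psph*, -0.63 to -0.39 for *Shmt2*, 0.0741 to 0.20 for *Mthfd1* and 0.20 to 0.60 for *Mthfd2*. With 1 library left out, the members called numbered 4 to 8, of which 2 to 5 were higher, and the most were called without ESC replicate 3. The pathway genes called numbered 18 to 38 (10 to 21 higher, 8 to 23 lower), and all genes called 4244 to 7181 (2144 to 3572 higher, 2100 to 3609 lower). Both totals were lowest without EpiLC replicate 1, and the pathway total was 21 without EpiLC replicate 2. Such fits also have fewer samples. The cause of the other changes was not tested.

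Same-numbered replicates paired weakly at most: their deviations from the group means correlated at 0.00668, 0.186 and 0.17. With a replicate block *Phgdh* passed at 0.39, *Slc38a2* did not pass at 0.24 (adjusted p = 0.0621 by edgeR), no other gene for which alternatives were run changed its call, 6 members were called and 6085 of all genes were.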
